A study of Mus musculus with 43 samples.

Results

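The difference between lupus-prone NZM skin and WT skin in their response to chronic ultraviolet B (UVB) light was measured in 19 of 43 poly-A RNA libraries from mouse back skin. For each gene the change from unexposed to chronically exposed skin in WT was subtracted from the same change in NZM. This interaction was computed for the 19170 of 23256 genes that had a normalised read count of at least 10 in at least 4 of the 43 libraries, so the choice of genes did not use the interaction. The series title gives the NZM strain as NZM2328, which is prone to lupus, and the labels do not say which strain WT is. All groups were female mice aged 10 to 13 weeks. Chronic UVB was 1 exposure of 100 mJ/cm2 a day for 5 days, and skin was taken 24 hours after the last. The groups were NZM after chronic UVB (5 libraries), NZM without UVB (5), WT after chronic UVB (5) and WT without UVB (4). The labels do not state that each library came from a separate animal, so p-values measure the spread between these libraries, which may be technical. Libraries are called here by the sample number in their labels.

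UVB is absorbed mainly in the epidermis, where keratinocytes answer DNA damage with p53 target genes, divide, thicken the cornified layer and release cytokines and chemokines. In repeatedly exposed skin the epidermis thickens, stress keratins and small proline-rich proteins are made, and Langerhans cells leave. Sunlight sensitivity is a feature of lupus, and NZM2328 is used as a model of the disease.

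The 19 libraries held 18.5 M to 37.8 M reads (median 24.4 M). The labelled tissue was checked on the basal keratins. Krt14 ranged from 45003 to 338018 and Krt5 from 62903 to 265557 normalised counts over the 19 libraries. A normalised count is a read count divided by the library's size factor. Whole-skin RNA cannot tell fewer cells of a type from less RNA per cell.

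Some libraries stood apart from the rest of their group. A list score here is the mean of log2(value + 1) over the genes of a list, centred per gene over the 43 libraries. The hair follicle score of NZM libraries 17, 55 and 56 after chronic UVB was 6.87, 7.78 and 7.43, that of library 18 was 2.01 and that of library 54 was -2.56. Without UVB, WT library 44 had 2.53, while the highest of the other 3 WT libraries was -2.92. Unexposed WT libraries 44 and 45 had fibroblast scores of 1.62 and 1.99, against 0.04 and 0.44 in libraries 41 and 43. Their macrophage scores were 1.99 and 2.51, against -0.05 and 0.07. Calls lost without these libraries are stated below beside the genes or lists they touch. Leaving out the hair-rich libraries means the 9 of 43 with a hair follicle score above 5, of which 3 are in the compared groups (NZM 17, 55 and 56). Leaving out WT libraries 44 and 45 keeps 2 unexposed WT libraries. Both were chosen after seeing the data. Values per library are given in the order 54, 17, 18, 55 and 56 for exposed NZM, 31 to 35 for unexposed NZM, 58, 27, 28, 29 and 59 for exposed WT, and 41, 43, 44 and 45 for unexposed WT.

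The upstream sequences of 5 genes described below are shown. These are the chemokine genes Cxcl2 and Cxcl10, and the cornified-layer genes Sprr2h, Flg and Rptn, which lie in the same gene cluster. Each sequence is the 250 bases before the RefSeq gene start on GRCm38.p6, read 5′ to 3′ on the gene's strand. They lie at chr5:90903649-90903898 (plus strand) for Cxcl2, chr5:92348890-92349139 (minus) for Cxcl10, chr3:92385435-92385684 (plus) for Sprr2h, chr3:93273296-93273545 (plus) for Flg and chr3:93393449-93393698 (plus) for Rptn. Capitals mark matches on either strand to a kappa B motif (GGGANTTTCC, bound by NF-kB), an AP-1 motif (TGANTCA), an interferon-stimulated response element (GAAANNGAAA) or a TATA box (TATAAA).
Cxcl2: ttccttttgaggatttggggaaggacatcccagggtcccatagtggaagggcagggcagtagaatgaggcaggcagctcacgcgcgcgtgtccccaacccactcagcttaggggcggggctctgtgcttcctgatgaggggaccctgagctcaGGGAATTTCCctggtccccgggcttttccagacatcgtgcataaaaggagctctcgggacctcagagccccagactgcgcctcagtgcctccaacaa
Cxcl10: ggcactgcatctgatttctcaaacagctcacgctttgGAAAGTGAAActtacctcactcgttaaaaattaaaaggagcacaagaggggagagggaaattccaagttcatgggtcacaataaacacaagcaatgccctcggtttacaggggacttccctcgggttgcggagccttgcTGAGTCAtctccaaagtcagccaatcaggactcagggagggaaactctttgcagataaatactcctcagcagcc
Sprr2h: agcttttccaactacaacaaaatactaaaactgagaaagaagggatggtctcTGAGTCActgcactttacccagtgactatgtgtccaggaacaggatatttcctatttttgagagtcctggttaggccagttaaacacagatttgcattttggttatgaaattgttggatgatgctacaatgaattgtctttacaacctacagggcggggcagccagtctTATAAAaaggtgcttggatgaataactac
Flg: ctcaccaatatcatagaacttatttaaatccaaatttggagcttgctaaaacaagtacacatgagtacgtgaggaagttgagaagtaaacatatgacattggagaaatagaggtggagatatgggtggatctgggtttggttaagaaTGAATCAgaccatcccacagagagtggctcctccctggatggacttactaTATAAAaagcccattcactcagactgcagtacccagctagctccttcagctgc
Rptn: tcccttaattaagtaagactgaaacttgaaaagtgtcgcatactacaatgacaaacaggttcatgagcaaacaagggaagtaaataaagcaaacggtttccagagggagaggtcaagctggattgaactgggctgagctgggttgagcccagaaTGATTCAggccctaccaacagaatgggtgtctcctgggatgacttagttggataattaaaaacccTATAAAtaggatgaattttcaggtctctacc
The kappa B match of Cxcl2 lies 97 to 88 bases before the start, and 0.36% of the 32851 upstream sequences in the RefSeq table hold that motif. Cxcl10 has an interferon response match 213 to 204 bases and an AP-1 match 74 to 68 bases before its start, and 2.98% and 6.75% of all upstream sequences hold these. Sprr2h, Flg and Rptn each have 1 AP-1 match and 1 TATA match, and 12.37% of all hold the TATA letters. Among upstream sequences of the genes called lower in NZM, 6.67% of 600 held the AP-1 motif and 1.0% the kappa B motif. Among those of the genes called higher in NZM, 4.27% of 609 and 0.33% did. Over all tested genes the shares were 5.24% and 0.42%. A match is a stretch of letters and was not tested as a binding site. Looser forms of these motifs were not searched, so an unmarked stretch may still hold one.

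The chronic response differed between the strains for 1454 genes, 7.58% of those tested (limma, Benjamini-Hochberg adjusted p below 0.05). The response was higher in NZM for 671 genes (3.5%) and lower in NZM for 783 (4.08%). Below, a gene called higher or lower in NZM is so in this response, which does not give its level. The median over all genes was -0.01 on the log2(value + 1) scale. At an unadjusted p below 0.05 there were 4612 genes. Within WT, chronic UVB changed 6761 genes (35.3%): 3532 rose (18.4%) and 3229 fell (16.8%). Within NZM it changed 3638 (19%): 1763 rose (9.2%) and 1875 fell (9.78%). The responses of the single NZM and WT libraries did not overlap for 3614 genes (18.9%), with NZM above WT for 1771 (9.24%) and below for 1843 (9.61%). Most of the called differences came with a change that passed the threshold in WT and not in NZM. Of the 783 genes lower in NZM, 553 (70.6%) rose in WT and were not called in NZM, 58 rose in both strains, 31 rose in WT and fell in NZM, and 111 fell in NZM alone. Of the 671 genes higher in NZM, 430 (64.1%) fell in WT and were not called in NZM, 132 rose in NZM alone, 45 rose in NZM and fell in WT, and 26 fell in both. The count was 296 without WT libraries 44 and 45, of which 272 were among the 1454. Without the hair-rich libraries it was 1965, of which 905 were among the 1454, so many calls were lost and many were new.

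**Figure D1:**
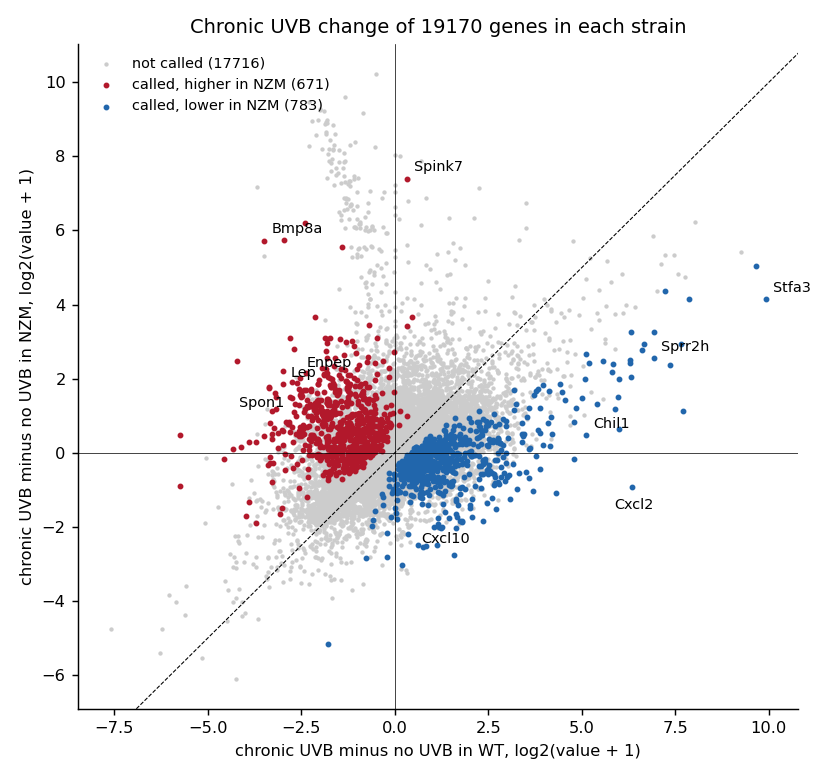
Change after chronic UVB in WT (x axis) and in NZM (y axis) for 19170 genes, each on the log2(value + 1) scale, with genes called higher in NZM in red (671), called lower in blue (783) and the rest in grey. Called genes lie away from the dashed line of equal change, and the blue genes with the largest values sit at the right, where the WT change reaches 9.91 for Stfa3; the grey genes highest on the y axis are mostly hair keratin genes.

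For many of these genes the strains differed before exposure more than after it. The difference between NZM and WT was larger without UVB than after chronic UVB for 1081 of the 1454 called genes (74.3%), against 57.4% of all genes tested. For genes called lower in NZM the median difference of NZM from WT was 0.70 without UVB and -0.44 after chronic UVB. For genes called higher it was -1.28 without UVB and 0.48 after. The change in NZM was smaller in size than the change in WT for 1130 of the 1454 (77.7%), against 62.5% of all genes. These differences share their libraries with the interaction and are given as a description.

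**Figure D2:**
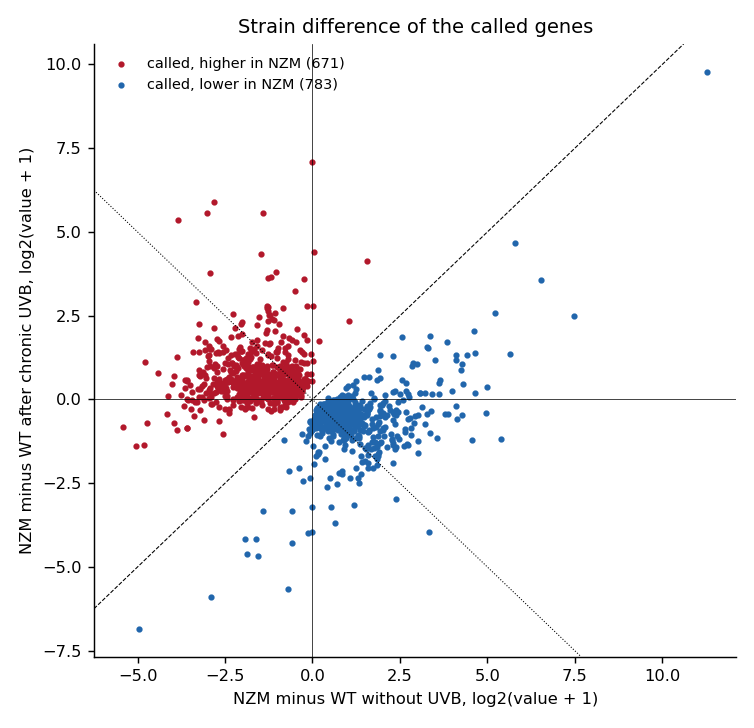
NZM minus WT without UVB (x axis) and after chronic UVB (y axis) for the 1454 called genes, on the log2(value + 1) scale; the dashed line marks an equal difference in both states and the dotted line an equal size with opposite sign. Most red genes start below 0 without UVB (median -1.28) and most blue genes above it (median 0.70), and both medians lie nearer to 0 after chronic UVB.

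Genes of the stressed and cornifying epidermis were called lower in NZM in several lists. Among 31 tested genes of keratinocyte stress and alarmins, 8 were called lower in NZM and 0 higher, 25.8% against 7.58% of all genes, with a median interaction of -1.89. In WT 20 of the 31 rose and in NZM 7 did. The 8 were Krt16, a stress keratin, the interleukin-36 genes Il1f6 and Il1f8, the defensins Defb3 and Defb14, the protease inhibitor Serpinb3a, and the envelope genes Sprr2d and Sprr2h. Serpinb3a had 122 to 1125 counts in unexposed NZM and 0 to 4.77 in unexposed WT. After UVB it had 3877, 2478, 6156, 326 and 2170 in NZM and 290, 425, 820, 454 and 167 in WT. Without WT libraries 44 and 45, 1 of the 31 was called and the median was -2.17. Of 16 small proline-rich genes, which encode crosslinked proteins of the cornified envelope, 4 were lower in NZM (median -3.39). In WT 13 of these rose and in NZM 4 did. Of 7 genes of stefin A and related cysteine protease inhibitors, 4 were lower, Stfa3, Csta1, Cst6 and Cstb (median -2.08). Of 26 epidermal differentiation genes, 5 were lower (median -1.29), and of 21 late cornified envelope genes 1 was, Lce3c. Without WT libraries 44 and 45, limma called 1 of 16 small proline-rich genes (Sprr2h), 2 of 7 stefin A and related genes (Stfa3 and Cstb), 1 of 26 differentiation genes (Rptn) and 0 of 21 late cornified envelope genes, where Lce3c had an adjusted p of 0.056. Without the hair-rich libraries the counts were 5, 3, 3 and 1 lower, and Csta1 (adjusted p = 0.104) was among those lost. Sprr2 and stefin A genes are close copies, so reads may have been divided among them.

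**Figure D3:**
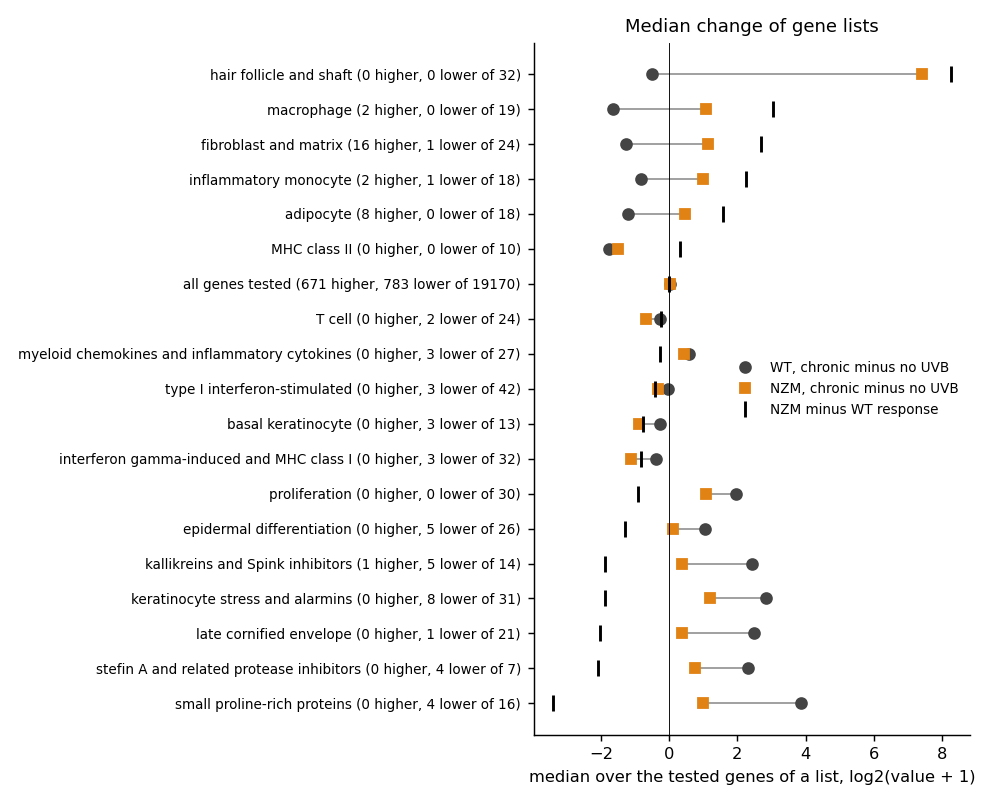
Median change after chronic UVB of the tested genes of 18 lists and of all genes, in WT (circles) and NZM (squares) on the log2(value + 1) scale, with the median interaction as a bar; labels give the genes called higher and lower in NZM. Small proline-rich genes have the lowest median interaction, -3.39, and hair follicle genes the highest, 8.25, with 0 of 32 called.

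Stfa3, a stefin A gene (chromosome 16, 36450537 to 36455392, GRCm38), had 24.4, 48.5, 26.6 and 94.6 normalised counts in unexposed WT skin and 50217, 40591, 34653, 49274 and 33817 after chronic UVB. In NZM it had 401, 968, 1031, 1612 and 1545 without UVB and 19842, 27810, 38763, 5232 and 15559 after. Unexposed NZM libraries all lay above unexposed WT libraries, while after UVB 4 of 5 exposed NZM libraries lay below every exposed WT library. Stfa3 rose by 9.91 in WT and 4.15 in NZM on the log2 scale, and the interaction was -5.77 ± 1.00 (SE, limma adjusted p = 0.0006). Sprr2h (chromosome 3, 92385685 to 92387324) had 2.32, 6.92, 3.66 and 11.9 counts in unexposed WT and 682, 486, 1583, 772 and 663 after UVB. In unexposed NZM it had 12.8, 19.1, 139, 155 and 197, all above WT, and after UVB 458, 258, 683, 413 and 254. Its interaction was -4.37 ± 0.96 (adjusted p = 0.00567), and it was called both without the hair-rich NZM libraries (-3.83, adjusted p = 0.0143) and without WT libraries 44 and 45 (-4.67, adjusted p = 0.0209). The groups did not overlap without UVB and overlapped after it.

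Filaggrin (Flg), which bundles keratin in the cornifying cell, and its neighbours Rptn and Hrnr had a lower response in NZM. Hrnr had -3.29 ± 0.82 (adjusted p = 0.0131) and was not called without WT libraries 44 and 45 (adjusted p = 0.102). Flg had 1623, 1502, 840 and 697 counts in unexposed WT and 151858, 175361, 44137, 147302 and 78786 after UVB. In NZM it had 1943, 4313, 7125, 10795 and 8529 without UVB and 38355, 94793, 125715, 6819 and 27009 after. NZM library 55 was the lowest exposed library, and its hair follicle score was the highest of the group. Unexposed NZM lay above unexposed WT in every library, and the exposed groups overlapped. The interaction of Flg was -3.82 ± 1.09 (adjusted p = 0.0263), and was -3.31 (adjusted p = 0.168) without WT libraries 44 and 45 and -2.97 (adjusted p = 0.0549) without the hair-rich NZM libraries. Rptn, which encodes repetin, a crosslinked envelope protein, had 15.1, 46.5, 65.9 and 207 counts in unexposed WT and 13382, 7884, 26573, 12995 and 5359 after UVB. Unexposed NZM had 754, 1329, 1124, 180 and 687, and exposed NZM had 6016, 9117, 13485, 737 and 6774. Its groups overlapped between strains in both states. The interaction of Rptn was -4.71 ± 1.15 (adjusted p = 0.0118) and it was called without WT libraries 44 and 45 (-5.76, adjusted p = 0.0142) and without the hair-rich libraries (-3.91, adjusted p = 0.0189). Lor and Krt10, markers of the normal suprabasal epidermis, had interactions of -1.57 ± 1.03 and -1.52 ± 1.05, with adjusted p of 0.359 and 0.388.

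Several called genes of the cornified layer lie in gene clusters. In the epidermal differentiation complex, from S100a1 to S100a10 on chromosome 3 (90511034 to 93564643), 12 of 66 tested genes were lower in NZM and 0 higher (18.2%), with a median interaction of -1.74. In the kallikrein cluster on chromosome 7 (43690418 to 44229618), which encodes serine proteases that shed the outer layer, 5 of 11 were lower (median -2.94), and all 11 were below 0. Klk13, a member, had 9.29, 17.8, 26.6 and 56.4 counts in unexposed WT, 3373, 2937, 4522, 3333 and 1263 after UVB, 66.5, 291, 198, 131 and 233 in unexposed NZM and 1893, 1670, 2495, 919 and 1302 in exposed NZM. The unexposed groups did not overlap and the exposed groups did. Klk13 rose in both strains, by 6.92 in WT and 3.25 in NZM, with an interaction of -3.67 ± 0.76 (limma adjusted p = 0.00359). Klk6 had -3.52 ± 0.77 (adjusted p = 0.0059). These 3 clusters and their borders were chosen after their values were seen. In the stefin A cluster on chromosome 16 (36119946 to 36455392), 2 of 5 tested genes were lower. Without WT libraries 44 and 45, limma called Stfa3 of this cluster but not Csta1 (adjusted p = 0.273). It called Klk13 and Klk6 but not Klk8 (adjusted p = 0.115). In the differentiation complex it called Rptn and Sprr2h but not Flg, Hrnr, Lce3c, Sprr2d, Sprr2e or Sprr2f. Flg and Csta1 were also lost without the hair-rich libraries. Cluster counts were not taken again without these libraries.

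Other epidermal genes were called in the same direction. Of 13 basal keratinocyte genes, 3 were lower in NZM, namely Krt5, Krt14 and the hemidesmosome integrin Itgb4. None of the 13 was called without WT libraries 44 and 45 (adjusted p = 0.0601, 0.0692 and 0.211 for these 3). In NZM 10 of the 13 fell, and in WT 2 rose and 2 fell. Krt14 rose by 2.06 in WT and had a change of -0.10 in NZM, an interaction of -2.16 ± 0.48 (adjusted p = 0.00608). Under quantile normalization Krt14 had -1.19 (adjusted p = 0.096) and Krt5 -0.60 (adjusted p = 0.301). Krt6b, a wound keratin, rose in both strains, by 7.57 in WT and 4.82 in NZM, and its interaction of -2.75 ± 1.31 was not called (adjusted p = 0.189). Cstb, a cysteine protease inhibitor, showed little spread. It had 1155 to 1277 counts in the 4 unexposed WT libraries, 2318 to 3516 in unexposed NZM, 2875 to 3718 in exposed WT and 2522 to 3409 in exposed NZM. Only unexposed WT stood apart, and the interaction was -1.41 ± 0.23 (adjusted p = 0.000457). Thioredoxin (Txn1), a redox protein, had -1.09 ± 0.18 (adjusted p = 0.000497).

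Single chemokine genes and the NF-kB regulator gene Nfkbiz were called lower in NZM. Cxcl2, a chemokine that attracts neutrophils (chromosome 5, 90903871 to 90905938), had no reads in the 4 unexposed WT libraries and 349, 166, 24.0, 62.6 and 37.5 counts after chronic UVB. Unexposed NZM had 5.84, 16.1, 16.2, 2.44 and 13.6 and exposed NZM 17.0, 0, 6.68, 5.4 and 3.43. Every exposed WT library lay above every exposed NZM library. The WT mean was at least 180.1-fold higher after UVB, against a floor of 3 reads over the unexposed group that covers counting error only. The interaction was -7.28 ± 1.34 (limma adjusted p = 0.00119), with -6.11 (adjusted p = 0.00532) without the hair-rich NZM libraries. Cxcl10 (chromosome 5, 92346638 to 92348889), which attracts T cells and is induced by interferon, moved in opposite directions. In WT it had 23.2, 26.7, 26.6 and 52.4 counts without UVB and 335, 103, 69.7, 307 and 143 after. Unexposed NZM had 78.2, 243, 94.8, 122 and 399 and exposed NZM 95.6, 18.8, 49.0, 37.8 and 40.0. It rose by 2.36 in WT and fell by 1.85 in NZM, and the WT groups did not overlap. The interaction was -4.20 ± 0.78 (adjusted p = 0.00128), and -4.49 (adjusted p = 0.00695) without WT libraries 44 and 45.

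Nfkbiz, which encodes an inducible nuclear regulator of NF-kB (chromosome 16, 55811375 to 55838899), had 204, 186, 330 and 341 counts in unexposed WT and 1154, 896, 700, 1284 and 824 after UVB. Its NZM counts were 2558, 3353, 2346, 1353 and 1686 without UVB and 1771, 997, 1589, 580 and 938 after. Unexposed NZM lay above every WT library of either kind. It rose by 1.89 in WT and fell by 0.98 in NZM, and the interaction of -2.87 ± 0.45 (adjusted p = 0.000241) was called under each left-out library, with a highest adjusted p of 0.000932. Of 27 myeloid chemokines and inflammatory cytokines, 3 had a lower response in NZM, Cxcl2, Ccl20 and Tnf (11.1%, against 7.58% of all genes, median -0.25). Ccl20, a chemokine for dendritic cells and T cells, had -3.09 ± 0.88 (adjusted p = 0.0261), and Tnf, an inflammatory cytokine, -2.06 ± 0.65 (adjusted p = 0.0432). Without WT libraries 44 and 45 neither was called (adjusted p = 0.0813 and 0.135), and Tnf was not called without the hair-rich libraries (adjusted p = 0.155). Ccl20 had 363, 531, 215, 145 and 341 counts in unexposed NZM and 225, 100, 183, 36.2 and 98.8 after UVB. In WT it had 6.96, 15.8, 11.9 and 19.1 without UVB and 25.95, 22.1, 101, 63.8 and 37.5 after. Tnf had 34.7 to 68.4 counts in unexposed NZM and 6.41 to 15.9 in unexposed WT. After UVB it had 14.3 to 45.4 in NZM and 7.49 to 52.9 in WT. Il1b and Cxcl1 had -3.33 ± 1.25 and -2.63 ± 1.03 with adjusted p of 0.0909 and 0.106. In this list 4 genes rose and 5 fell in WT, and none changed in NZM.

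**Figure D4:**
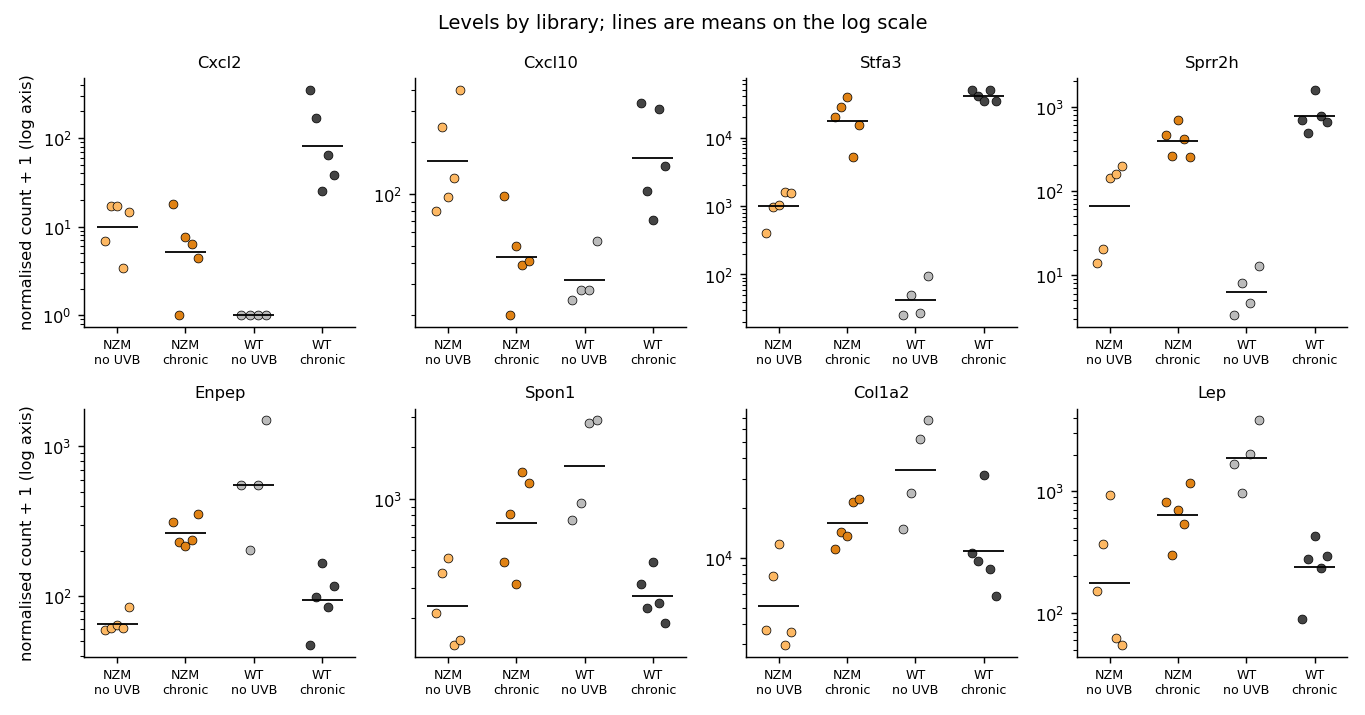
Normalised count plus 1 of 8 genes in each library of the 4 groups, on a log axis, with lines at the mean of the log values. Cxcl2, Cxcl10, Stfa3 and Sprr2h are lowest on average in unexposed WT skin, and Enpep, Spon1, Col1a2 and Lep are lowest on average in unexposed NZM skin.

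Of 32 genes induced by interferon gamma or of MHC class I, 3 were lower in NZM (9.4%), near the 7.58% called over all genes (median -0.84). These were Cxcl10, Tap1, a peptide transporter, and Socs1, a feedback inhibitor. Without WT libraries 44 and 45 only Cxcl10 of the 3 was called, with adjusted p of 0.208 for Tap1 and 0.0508 for Socs1. Socs1 was also lost without the hair-rich libraries (adjusted p = 0.116), in 5 of 11 planned settings and in 12 fits without 1 library. In NZM 18 of the 32 fell and in WT 0 fell and 3 rose. Over all genes tested 9.78% fell in NZM, and in WT 16.8% fell and 18.4% rose. The list score was 0.47, -0.93, -0.12, -0.79 and -0.41 in exposed NZM libraries 54, 17, 18, 55 and 56. In unexposed NZM it was 0.19 to 1.47. The hair-rich libraries 17, 55 and 56 were the lowest, and the count of 18 was not taken again without them. Of 42 type I interferon-stimulated genes, 3 were lower, among them Parp9, a mono-ADP-ribosyltransferase family gene (-1.32 ± 0.36, limma adjusted p = 0.022), and Eif2ak2, a kinase activated by double-stranded RNA (-0.87 ± 0.28, adjusted p = 0.0498). Eif2ak2 was lost in 5 of 11 planned settings, edgeR and TMM scaling among them, in 13 fits without 1 library and without the hair-rich libraries (adjusted p = 0.155). The called share of the list was 7.1% and its median -0.42. The share was near that of all genes. Isg15, Ifit1 and Mx1 had interactions of -1.38, -1.38 and -1.41, with 95% intervals of -3.08 to 0.33, -3.18 to 0.42 and -3.65 to 0.83, and none was called.

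Several genes outside these groups rose in WT and were not called in NZM. Igfl3 had 1.16, 0.99, 0 and 6.36 counts in unexposed WT and 643, 297, 424, 363 and 1006 after UVB. Its NZM counts were 53.7, 204, 94.8, 55.0 and 164 without UVB and 201, 270, 135, 370 and 171 after. The NZM groups overlapped, and the interaction was -6.59 ± 1.12 (limma adjusted p = 0.000518). Chil1, which encodes a secreted chitin-binding protein without enzyme activity, had 26.7, 23.7, 49.4 and 42.1 counts in unexposed WT and 619, 1629, 2599, 1941 and 491 after. In NZM it had 993, 3421, 2001, 292 and 836 without UVB and 1975, 1078, 2261, 1180 and 1545 after. The unexposed NZM range overlapped that of exposed WT and lay above that of unexposed WT, and the interaction was -4.63 ± 0.83 (adjusted p = 0.000849). Cyp2g1, a cytochrome P450 gene, had -5.38 ± 1.05 (adjusted p = 0.00208). Cd5, a surface receptor of T cells and some B cells, rose by 3.41 in WT and had a change of 0.51 in NZM, with an interaction of -2.90 ± 0.48 (adjusted p = 0.000487). Only Cd5 and the receptor chain gene Trbc2 of 24 T cell genes were called, and the list's median was -0.23. Igfl3, Chil1, Cyp2g1 and Cd5 were called without the hair-rich libraries and without WT libraries 44 and 45, and Trbc2 was called in neither case (adjusted p = 0.138 and 0.293).

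A smaller number of genes rose in NZM and fell in WT. Enpep, a membrane aminopeptidase that cleaves angiotensin (chromosome 3, 129269175 to 129332720), had 58.4, 60.2, 63.6, 59.9 and 84.4 counts in unexposed NZM and 314, 229, 216, 237 and 355 after chronic UVB. In WT it had 555, 203, 549 and 1502 without UVB and 45.9, 97.1, 166, 83.1 and 117 after. The groups of each strain did not overlap. Enpep rose by 2.02 in NZM and fell by 2.55 in WT, an interaction of 4.57 ± 0.74 (limma adjusted p = 0.000415), with 3.85 (adjusted p = 0.00954) without WT libraries 44 and 45. Spon1, which encodes spondin 1, a secreted matrix protein, had 214, 365, 447, 138 and 149 counts in unexposed NZM, 427, 816, 315, 1429 and 1243 in exposed NZM, 753, 938, 2776 and 2887 in unexposed WT and 317, 228, 425, 245 and 187 in exposed WT. The WT groups did not overlap and the NZM groups did. Spon1 had an interaction of 4.13 ± 0.76 (adjusted p = 0.00123), and 3.25 (adjusted p = 0.0384) without WT libraries 44 and 45. Fads3, of the fatty acid desaturase family, had 300, 470, 469, 277 and 212 counts in unexposed NZM, 688, 1632, 836, 2588 and 2807 in exposed NZM, 1490.3, 936, 1172 and 1878 in unexposed WT and 230, 534, 479, 318 and 400 in exposed WT. Neither strain's groups overlapped. Fads3 had an interaction of 3.97 ± 0.63 (adjusted p = 0.000325), and 3.80 (adjusted p = 0.00478) without WT libraries 44 and 45. Glis3, a zinc finger transcription factor gene, had 3.90 ± 0.73 (adjusted p = 0.0014). Fndc1 had 4.52 ± 1.03 (adjusted p = 0.00747) and C4a, a complement gene with a near-identical copy (C4b), 3.95 ± 0.87 (adjusted p = 0.00588), and neither was called without WT libraries 44 and 45 (adjusted p = 0.0928 and 0.116). In the reverse direction, Egln3, which encodes an oxygen-sensing hydroxylase, rose by 1.29 in WT and fell by 1.14 in NZM, with -2.43 ± 0.49 (adjusted p = 0.00269). Slc27a3, of the fatty acid transport protein family, had -1.79 ± 0.35 (adjusted p = 0.00184). Of the genes that had a mean of at least 100 and no overlap of the library responses, 41 rose in NZM and fell in WT, and 25 did the reverse.

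Many genes of the dermis and its fat were called higher in NZM, and neither list had a called gene without unexposed WT libraries 44 and 45. Of 24 fibroblast and matrix genes, 16 were higher and 1, Postn, was lower (70.8%, median 2.70). In NZM 8 of them rose and none fell, and in WT 12 fell and 1 rose. Col1a2, a collagen I chain, had 14926, 24517, 52055 and 67822 counts in unexposed WT and 10697, 9588, 31447, 8573 and 5893 after UVB. In NZM it had 3661, 7723, 12083, 2954 and 3551 without UVB and 11327, 14325, 13528, 21607 and 22684 after. The groups overlapped within each strain. Libraries 44 and 45 were the highest of the 19, and WT library 28 was the highest of the exposed WT group. The interaction was 3.26 ± 0.87 (limma adjusted p = 0.0187), and it was not called without libraries 44 and 45 (2.44, adjusted p = 0.189) or without the hair-rich libraries (2.88, adjusted p = 0.0658). Without those 2 libraries 0 of 24 genes were called by limma and the median was 1.65; with all libraries edgeR called 14 higher and DESeq2 18. The summed level of the list was 104356 to 412987 in unexposed WT, 68389 to 233061 in exposed WT, 53733 to 105593 in unexposed NZM and 92007 to 171904 in exposed NZM.

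Of 18 adipocyte genes 8 were higher (median 1.59), among them Lep, which encodes the fat hormone leptin, Adipoq and Plin1. Lep had 1674, 975, 2005 and 3850 counts in unexposed WT and 88.8, 280, 429, 236 and 293 after UVB, with no overlap. In NZM it had 151, 368, 933, 61.1 and 53.3 without UVB and 814, 298, 697, 537 and 1166 after, with overlap. It fell by 2.99 in WT, its change in NZM was 1.85 (adjusted p = 0.077), and the interaction was 4.84 ± 1.09 (adjusted p = 0.00712). Without libraries 44 and 45 the interaction was 4.28 (adjusted p = 0.0685) and 0 of 18 adipocyte genes were called. Without the hair-rich NZM libraries 13 of 18 were. Of 19 macrophage genes 2 were called higher by limma, Lyve1, a receptor for hyaluronan, and C1qb, a complement chain, with a median of 3.05; edgeR called 10 and DESeq2 12. Without WT libraries 44 and 45 limma called 0 of 19, and C1qb had an adjusted p of 0.368. The Lyve1 counts of 5137 and 2284 in WT libraries 44 and 45 stood above the 169 and 317 of libraries 41 and 43, and its interaction of 4.44 became 2.49 (adjusted p = 0.276) without them. Lyz1, a lysozyme gene, fell by 5.75 in WT, with an interaction of 6.24 ± 1.31 (limma adjusted p = 0.00407). That interaction was 5.54 (adjusted p = 0.0512) without WT libraries 44 and 45.

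Hair shaft genes varied widely between exposed NZM libraries. Of 32 hair follicle and shaft genes 21 rose in NZM and none was called in WT, and the median interaction was 8.25, but limma called 0 of 32. At an unadjusted p below 0.05 there were 18, edgeR called 19 and DESeq2 24. The summed level of the list was 2105 to 761702 in exposed NZM, 2103 to 3266 in unexposed NZM, 1625 to 24652 in unexposed WT and 1932 to 7971 in exposed WT. Krtap4-6, a hair keratin-associated protein gene, had 0.95, 2485, 106, 9384 and 5191 counts in NZM libraries 54, 17, 18, 55 and 56, 147 in WT library 44 without UVB, and no reads in the other 13 libraries. Its interaction was 10.71 ± 3.56 (limma adjusted p = 0.0565). Krt36, a hair keratin gene outside the list, was called, at 8.72 (limma adjusted p = 0.026). It had 19.9, 733, 32.3, 1133 and 926 counts in exposed NZM. The interaction of Krt36 was 5.65 (adjusted p = 0.046) without the hair-rich libraries and 7.68 (adjusted p = 0.161) without WT libraries 44 and 45. Bmp8a, which encodes a bone morphogenetic protein, followed the same libraries, with 16.1, 134, 10.0, 313 and 234 counts, against 0, 0, 3.47, 0 and 0 in unexposed NZM. In WT it had 3.48, 13.9, 61.3 and 33.4 without UVB and 0, 0, 6.53, 0 and 1.07 after, and the interaction was 9.22 ± 2.05 (adjusted p = 0.00613) with all libraries, 6.83 (adjusted p = 0.00609) without the hair-rich NZM libraries and 7.97 (adjusted p = 0.0695) without WT libraries 44 and 45. Of 15 melanocyte genes 8 rose in NZM and 1 in WT, and 1, Rab38, was called, lower in NZM. In exposed NZM the melanocyte score was high in libraries 17, 55 and 56 (3.28, 3.52 and 3.38) and low in libraries 54 and 18 (-1.51 and -1.50). The median change of the list was 3.80 in NZM and 1.86 in WT. The score was -1.65 to 0.70 in unexposed WT and 0.23 to 2.27 in exposed WT, where hair follicle scores were -2.84 to -0.80. Rab38 was not called without WT libraries 44 and 45 (adjusted p = 0.167) or without the hair-rich libraries (adjusted p = 0.0899).

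**Figure D5:**
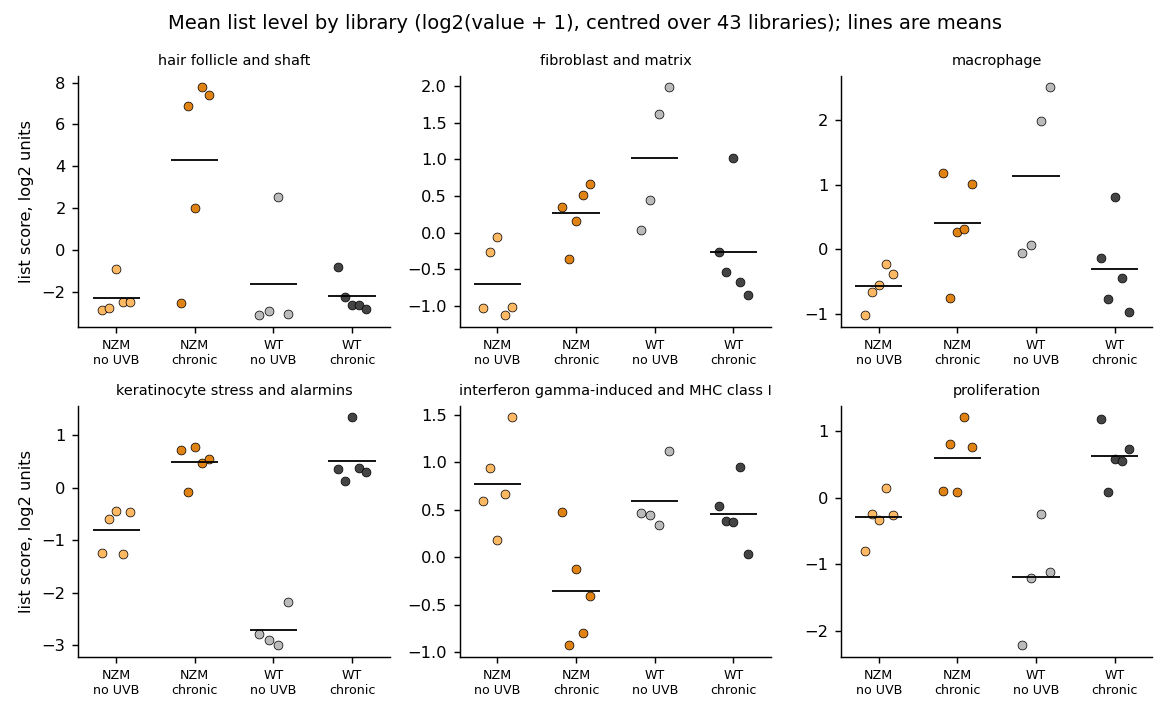
Score of 6 gene lists in each library of the 4 groups, in log2 units centred over the 43 libraries, with lines at the group means. Hair follicle scores of exposed NZM libraries run from -2.56 to 7.78, fibroblast and macrophage scores are highest in 2 unexposed WT libraries, and keratinocyte stress scores are lowest in unexposed WT skin.

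Spink7, a serine protease inhibitor gene of stratified epithelia, was highest in NZM library 54, which had the lowest hair follicle score of its group. It had no reads in the 5 unexposed NZM and the 4 unexposed WT libraries. After chronic UVB it had 449, 290, 437, 10.0 and 218 counts in NZM libraries 54, 17, 18, 55 and 56, and 2.0, 0, 0, 0 and 0 in WT. Library 55 was the lowest of the NZM group. The exposed NZM mean was at least 427.4-fold above a floor of 3 reads over the unexposed NZM group. The interaction was 7.09 ± 1.32 (limma adjusted p = 0.00128), 8.48 (adjusted p = 9.85e-10) without the hair-rich NZM libraries and 7.09 (adjusted p = 0.0125) without WT libraries 44 and 45. edgeR on the recovered reads did not call it (adjusted p = 1), and DESeq2 did. Spink7 was the 1 gene of 14 kallikrein and Spink genes that was higher in NZM, while 5 kallikreins were lower.

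Other lists held few called genes each, but not all of their shares were near the 7.58% of all genes tested. The called share was 18.2% for Langerhans and dendritic cell genes and 8.7% for barrier lipid genes. It was 7.1% for connexin and tight junction genes, 10.0% for NRF2 antioxidant genes and 8.3% for mast cell genes. Of 22 Langerhans and dendritic cell genes 2 were lower, Ccl22, a chemokine gene of dendritic cells (-3.30 ± 0.85, adjusted p = 0.0153), and the adhesion gene Epcam (-1.17 ± 0.25, adjusted p = 0.00531). Cd1d1, which presents lipids, and the lectin gene Cd209d were higher, at 2.20 ± 0.59 (adjusted p = 0.0204) and 3.55 ± 1.07 (adjusted p = 0.0356). Ccl22 was called without WT libraries 44 and 45, and the other 3 were not. Without the hair-rich libraries Ccl22 had an adjusted p of 0.0539. Of 23 barrier lipid genes 2 were lower, Elovl7, a fatty acid elongase (-2.04 ± 0.52, adjusted p = 0.0144), and Degs2, a ceramide enzyme (-3.76 ± 1.11, adjusted p = 0.0316), and neither was called without WT libraries 44 and 45. Degs2 was also lost without the hair-rich libraries (adjusted p = 0.0835). Gjb6, which encodes connexin 30, was the 1 gene called of 14 connexin and tight junction genes. It rose by 5.10 in WT and 2.68 in NZM, with -2.42 ± 0.63 (adjusted p = 0.0164), and was called without either set of libraries. Of 20 NRF2 antioxidant genes Txnrd1, the reductase of thioredoxin, was higher (1.69 ± 0.37, adjusted p = 0.0059) while Txn1 was lower. Mrgprb2, a receptor of mast cells, was the 1 of 12 mast cell genes called (3.00 ± 0.80, adjusted p = 0.0185), and it was not called without WT libraries 44 and 45 (adjusted p = 0.0859) or with the fibroblast covariate (adjusted p = 0.133). Of 19 neutrophil genes limma and edgeR called 0 and DESeq2 1, with 3 at an unadjusted p below 0.05, and 9 rose in WT and 5 in NZM.

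For several responses to chronic UVB no difference between the strains was called. Of 30 proliferation genes 26 rose in WT and 9 in NZM, and limma called 0 of 30 in the interaction (median -0.91), with 7 lower at an unadjusted p below 0.05 and 0 by edgeR and DESeq2. Without the hair-rich NZM libraries 5 were called lower. Mki67, a marker of dividing cells, had -1.23 with a 95% interval of -2.66 to 0.20. Cdkn1a, a p53 target that halts the cell cycle, rose by 0.58 in WT and 0.64 in NZM, with an interaction of 0.06 (interval -0.58 to 0.69). Of 30 p53 target genes 1, Aen, was higher in NZM. Of 10 MHC class II genes 7 fell in WT and 6 in NZM, and 0 were called in the interaction by limma, edgeR or DESeq2, with 0 at an unadjusted p below 0.05. H2-Ab1 had 0.11 (interval -1.31 to 1.53). Cd207, the Langerhans cell lectin, fell by 2.26 in WT and 2.55 in NZM and had -0.29 (interval -1.75 to 1.17). Of 9 gamma-delta T cell genes 6 fell in each strain and 0 were called by limma, edgeR or DESeq2, with 0 at an unadjusted p below 0.05. Skeletal muscle genes fell in both strains, 14 of 22 in each. The summed muscle level was 857111 to 2612347 without UVB and 125645 to 916095 after chronic UVB, and its part in the results was not tested. Differences inside these intervals were not detectable with this number of libraries.

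The strain difference was also compared between chronic and acute UVB, the latter 1 exposure of 300 mJ/cm2 with 5 libraries in each strain. The gap between NZM and WT after chronic UVB, minus the gap after acute UVB, was called for 558 genes (2.91%), 390 lower (2.03%) and 168 higher (0.876%). It shares the chronic libraries with the interaction above and uses no unexposed library. Rptn had -7.04 ± 1.11 (limma adjusted p = 0.000313), Klk13 -4.86 ± 0.74 (adjusted p = 0.000204), Stfa3 -4.90 ± 0.97 (adjusted p = 0.00368), Csta1 -3.71 ± 0.58 (adjusted p = 0.000313) and Flg -3.79 ± 1.05 (adjusted p = 0.0391). Of 26 epidermal differentiation genes 10 were lower, of 21 late cornified envelope genes 5, and of 7 stefin A and related genes 5. Cxcl2, Cxcl10 and Nfkbiz were not called, at -2.14 ± 1.30, -1.52 ± 0.76 and -0.28 ± 0.43. For these 3 the interaction with acute UVB in place of chronic was -5.14, -2.69 and -2.59, beside -7.28, -4.20 and -2.87 with chronic UVB; the 2 interactions share the unexposed libraries. Fads3 was higher, at 2.84 ± 0.61 (adjusted p = 0.00747).

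The response of iNZM, a strain that the labels do not define (5 exposed and 4 unexposed libraries), was set against that of NZM in the same way. limma called 0 of 19170 genes, with 2134 at an unadjusted p below 0.05 and a smallest adjusted p of 0.0665. edgeR called 0 and DESeq2 379. For Cxcl2, Cxcl10 and Nfkbiz, iNZM minus NZM was -1.09 ± 1.34, -0.22 ± 0.78 and 0.07 ± 0.45. Stfa3 had -1.47 ± 1.00 and Enpep -1.79 ± 0.74. Col1a2 had -3.70 ± 0.87 and Plin1, a lipid droplet gene, -3.95 ± 0.87, both at the smallest adjusted p of the comparison. This comparison shares the NZM libraries, the hair-rich ones among them, with the difference between NZM and WT. Exposed iNZM libraries 22, 24 and 25 were hair-rich too, with hair follicle scores of 5.61, 7.93 and 8.88. Exposed iNZM libraries 57 and 23 had 1.49 and -3.06.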

How the data were processed

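Per the submitters' processing notes, the authors used STAR, HTSeq and DESeq2 with build mm10; versions, annotation and filters are not given in the sources used here. The deposited signal is a normalised count: within a library, every value is a whole multiple of 1 step, and dividing by it returned whole reads for 100% of values (tolerance 0.01); size factors ran from 0.6796 to 1.7503 in the 19 libraries, and depth from 18.5 M to 37.8 M reads. Reads were 151 bases, paired, per the labels.

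Values were tested as log2(value + 1) with limma-trend 3.58.1 in R 4.3.3, with 9 group means over all 43 samples (34 residual degrees of freedom), two-sided, and Benjamini-Hochberg adjustment over 19170 genes at 0.05. A log2 difference on this scale understates the change of low genes. No replicates were merged, since the closest pair had a chi-square per gene of 16.93. Every deposited column matched a sample.

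The members and the 40 gene lists (774 genes, 746 tested) were chosen with earlier results of these data known. Genes to name had to be called, to reach a mean of 100 in 1 of the 4 groups and to have library responses that did not overlap between strains, and were taken by size: up to 12 per direction, and up to 6 per direction with opposite changes in the 2 strains. Added were up to 4 called genes of each list by adjusted p (for a list with none, the 2 with the smallest p), and 26 genes fixed by name; predicted models and receptor segments were left out of the first 2 sets. GENCODE vM21 (GRCm38) gave positions for 15391 of 19170 genes (80.3%), and RefSeq (GRCm38.p6) the upstream sequences.

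As alternatives, the pseudocount was set to 0.5 or 8, the filter was dropped or raised to 50, values were rescaled by TMM or quantiles, the fit was limited to the compared groups or given sample weights or a term for libraries numbered from 46 up, the threshold was 0.01, each library was left out in turn, and recovered reads were tested with edgeR 4.0.16 (quasi-likelihood) and DESeq2 1.42.0. Leaving out hair-rich libraries or WT libraries 44 and 45, and list scores as covariates, were added after seeing the data. Steps were tested on simulated data. Plots were drawn with matplotlib 3.10.9 in Python 3.11.15. Values are given for part of the 140 genes that the rule names, and the rest are not reported here.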

Additional observations from a re-analysis of the deposited data

Results flagged for a closer look

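The difference between strains was itself tested over 19170 genes. It was called for 1454 in the chronic response and for 558 in the chronic minus acute contrast, both described above.

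Of 300 pairs of a gene or list and a group that were examined, 20 had 1 library far from the others of its group; chance gives about 1 in 20. The genes examined were the 35 named for size or for opposite changes. Values are normalised counts. In exposed NZM skin, library 55 was low for Spink7 (10.02), Rptn (737.17) and Il1f6 (89.45). The other 4 libraries lay at 218.25 to 448.54, 6016.45 to 13485.05 and 1011.56 to 1901.29. In exposed WT skin, library 28 was high for Cd209g (298.43) and Fndc1 (889.85), library 58 was high for Foxi3 (708.54) and Spink7 (2.0), and library 59 was low for Il1f6 (228.0). In unexposed NZM skin, library 33 was high for Bmp8a (3.47), and library 35 was high for Bhlha9 (3.88) and Enpep (84.35). In unexposed WT skin, library 45 was high for Cxcl10 (52.44) and library 43 for Slc27a3 (1531.07).

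Among the 40 list scores, in log2 units, WT library 44 without UVB was high for hair follicle genes (2.533) and hair cycle signals (0.429), and WT library 45 for interferon gamma and MHC class I genes (1.115). Unexposed NZM library 33 was high for hair follicle genes (-0.914, the others at most -2.481), and library 31 was low for NRF2 antioxidant genes (-0.305). Exposed WT library 28 was high for keratinocyte stress (1.34), and library 29 was low for nerve and Schwann cell genes (-1.155).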

How the results depend on the processing

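Of the 1454 genes with a different chronic response, the count was 1360 to 1674 under other pseudocounts, filters, scalings, the sample-number covariate and edgeR. It was 2187 with only the compared groups, 3088 with sample quality weights, 2530 by DESeq2, 290 at a threshold of 0.01, 4150 with a hair follicle covariate, 296 without WT libraries 44 and 45, and 432 with a fibroblast covariate. Leaving out 1 library gave 608 to 1719. The lowest were without WT library 45 (608), WT library 29 (892), NZM library 56 (894), NZM library 55 (928) and NZM library 34 (933). The 3638 genes changed in NZM became 6347 with weights, 1278 at 0.01, 1006 without hair-rich libraries and 1890 to 4307 with 1 library left out, with 1890 without library 56, 2066 without library 55 and 2155 without library 17. The 6761 changed in WT became 4212 at 0.01 and 5316 to 6728 with 1 left out. The 558 of the chronic minus acute contrast became 2647 with weights, 1035 by DESeq2, 156 at 0.01, 866 without hair-rich libraries, 3275 with the hair score and 289 to 734 with 1 left out; the lowest were without WT acute library 50 (289) and 51 (343), NZM acute library 3 (330), NZM chronic library 56 (305) and WT chronic library 29 (354). The 0 of iNZM minus NZM became 391 with only the compared groups, 1230 with weights, 379 by DESeq2, 4 without hair-rich libraries, 472 with the hair score and 0 to 267 with 1 left out (178 without NZM library 17, 267 and 210 without iNZM libraries 23 and 25, 10 without NZM library 33 and 1 without NZM library 55). The cause of these shifts was not tested. None of the 140 named genes changed sign with a call in the settings run. Not all of the 140 were called in the main fit, and only called genes can leave the threshold. Of those called, 69 left it without WT libraries 44 and 45, 53 with the fibroblast covariate and 25 without the hair-rich libraries. No paired analysis was possible because no 2 groups share a replicate number. Depth limits genes with few reads, such as Bmp8a.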
